A study of Mus musculus with 12 samples.

Results

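Gas5, a mouse long noncoding RNA gene, and Zbtb37, the protein-coding gene whose annotated span runs into it, were followed by their rows in the total RNA table, 2 of 49489 gene rows, across all 6 total RNA libraries. Primary hippocampal neurons from newborn mice (P0) were cultured to day 16 in vitro (DIV 16), and RNA from a Gas5 pulldown was sequenced. The total RNA arm held 3 libraries titled sense and 3 titled antisense, and the small RNA arm held the same numbers. The labels do not say whether sense or antisense was the capture, nor whether the words name a probe or a bait, and neither group is therefore called a control. No strain, sex, genotype or treatment is given for either group, and whether replicates 1 to 3 are separate cultures is not stated. Each p-value below therefore measures spread among libraries that may differ only technically.

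Gas5 (growth arrest-specific 5) carries small nucleolar RNAs (snoRNAs) in its introns, which guide chemical modification of ribosomal RNA. Its spliced exons begin with the pyrimidine-rich start of the terminal oligopyrimidine class of RNAs, whose translation follows growth signals through mTOR, and they are removed by nonsense-mediated decay. In human cells a stem of the RNA has been described as a decoy for the glucocorticoid receptor. Zbtb37 encodes a member of the BTB and zinc finger family, whose BTB domain mediates protein pairing and whose zinc fingers contact DNA, and it is among the less studied members.

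Both genes lie on chromosome 1, on opposite strands and head to head. In RefSeq on GRCm38.p6, Gas5 occupies chr1:161034601-161038539 on the plus strand with 8 listed transcripts, and Zbtb37 occupies chr1:161002922-161034864 on the minus strand with 18. The spans share 264 bases, chr1:161034601-161034864, which is 6.7% of the Gas5 span and 0.83% of the Zbtb37 span. Gas5 has 2 listed start sites. The upstream one, at 161034601, lies 248 bases inside Zbtb37, so only transcripts from it run antisense to Zbtb37. The downstream one, at 161035166, lies 317 bases from the Zbtb37 start at 161034849, and transcripts from it leave in the other direction. The sources used here do not state whether counting used strand, and the split of reads between these genes where they overlap is uncertain.

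**Figure D1:**
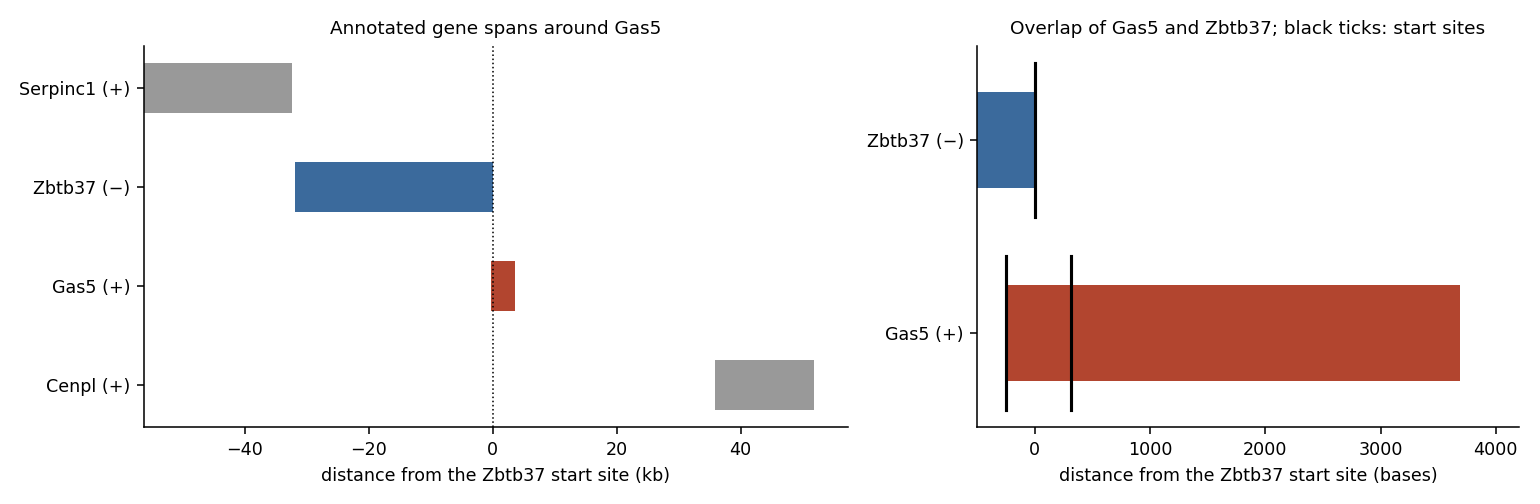
Left, annotated spans of Gas5, Zbtb37, Serpinc1 and Cenpl against distance from the Zbtb37 start site in kb, with the strand in brackets where the promoter table gives it. Right, the overlap of Gas5 and Zbtb37 in bases from the same site, with start sites as black ticks; the upstream Gas5 start lies 248 bases inside Zbtb37.

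The sequence around both starts is shown because it makes the head-to-head arrangement visible. The windows are RefSeq's, on GRCm38.p6, read 5′ to 3′ on each gene's own strand. The Gas5 window, chr1:161034916-161035215 on the plus strand, holds 250 bases before the downstream start and the first 50 transcribed bases. The Zbtb37 window, chr1:161034850-161035099 on the minus strand, holds the 250 bases before its start. Capitals mark the 184 bases, chr1:161034916-161035099, that both windows hold on opposite strands.
Gas5: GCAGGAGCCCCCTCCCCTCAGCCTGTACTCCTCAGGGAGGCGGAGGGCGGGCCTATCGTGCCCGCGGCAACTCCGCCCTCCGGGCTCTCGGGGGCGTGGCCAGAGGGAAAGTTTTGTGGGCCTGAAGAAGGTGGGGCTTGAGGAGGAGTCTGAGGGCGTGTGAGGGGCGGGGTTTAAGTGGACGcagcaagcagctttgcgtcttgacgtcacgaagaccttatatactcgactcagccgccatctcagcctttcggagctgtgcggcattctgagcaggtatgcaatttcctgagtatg
Zbtb37: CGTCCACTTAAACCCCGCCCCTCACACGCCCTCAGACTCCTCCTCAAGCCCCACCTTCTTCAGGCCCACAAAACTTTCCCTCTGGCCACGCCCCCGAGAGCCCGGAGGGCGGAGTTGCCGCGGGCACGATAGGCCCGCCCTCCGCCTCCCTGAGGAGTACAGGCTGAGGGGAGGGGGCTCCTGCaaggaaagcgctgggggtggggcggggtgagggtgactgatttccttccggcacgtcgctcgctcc
The Gas5 transcript starts at the downstream site with the pyrimidine run CTTTC, 5 bases long, as in RNAs of the terminal oligopyrimidine class. Motifs were chosen after the windows were read and were searched on both strands. The cAMP response element TGACGTCA occurs once in this Gas5 window, 46 bases before the start and outside the shared stretch, and is held by 1.79% of 32851 promoter windows of the same length. It was not found in the Zbtb37 window or in that of the upstream Gas5 start. The GC box GGGCGG is held by 35.7% of windows. It occurs 3 times in this Gas5 window and 5 times in the Zbtb37 window with its first 50 transcribed bases included. The 3 in the Gas5 window lie in the shared stretch and are the same sites as 3 of those 5. The TATA box letters TATAAA, held by 13.6% of windows, occur in none of the windows of either gene. Only these exact letters were searched, and the Gas5 window printed above holds the like letters TATATA before its start.

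Total RNA libraries held 10424024, 6478567 and 7594787 counts in sense replicates 1, 2 and 3 and 5812874, 6292946 and 5774904 in antisense replicates 1, 2 and 3, after rounding. Of 49489 genes 20049 were tested; 22.6% of them passed the edgeR quasi-likelihood test at a Benjamini-Hochberg adjusted p under 0.05, with 4.35% higher and 18.2% lower in sense. Markers of 5 cell classes were examined. The summed level of 6 neuron markers was 1037 to 1321 CPM in sense (CPM, counts scaled per 1e6 of the TMM-scaled library) and 815 to 999 CPM in antisense, with 2 higher in sense. For 5 astrocyte markers it was 941 to 1236 CPM in sense and 825 to 1046 CPM in antisense, with 1 higher. Of 5 oligodendrocyte lineage markers all were tested, at 277 to 361 CPM in sense and 257 to 282 CPM in antisense, and none passed in edgeR. Of 5 microglia markers 3 were tested, at 7.66 to 9.76 CPM in sense and 14.3 to 17.8 CPM in antisense. Of these, 1 was lower in sense, P2ry12, which had no count in sense replicates 1 and 2. P2ry12 met the filter on low counts through the antisense libraries alone. Of 3 endothelial markers 2 were tested, at 15.2 to 17.5 CPM in sense and 11.8 to 17.3 CPM in antisense, and none passed in edgeR. What part these marker levels have in the values of Gas5 or Zbtb37 was not tested, and in bulk libraries fewer cells of a type and less RNA per cell cannot be told apart.

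Gas5, the RNA after which the pulldown is named, was 6.86-fold higher in the sense libraries. It was the row with the most counts in each of the 6 libraries. The labels do not say whether Gas5 counts include RNA of a bait. Gas5 had 5954870, 2116204 and 3502645 counts in sense replicates 1, 2 and 3, against 564204, 893566 and 626081 in antisense replicates 1, 2 and 3. Every sense library lay above every antisense library. In TMM-scaled CPM the groups did not overlap, in either direction, for 36.6% of the 20049 genes tested. The 3 sense libraries were widely spread in Gas5, with replicate 1 far above replicate 2. The row with the next most counts was in all 6 libraries Malat1, an abundant nuclear long noncoding RNA. Gas5 had 38.0, 12.3 and 20.6 times its counts in sense replicates 1, 2 and 3, and 2.91, 4.36 and 3.9 times its counts in antisense replicates 1, 2 and 3.

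Set against the rest of each library, Gas5 had 133.2, 48.5 and 85.6 counts per 100 counts of all other genes in sense replicates 1, 2 and 3, against 10.7, 16.5 and 12.2 in antisense replicates 1, 2 and 3. In sense replicate 1 Gas5 thus outnumbered all other rows together. The counts outside Gas5 were in a narrower range, at 4469154, 4362363 and 4092142 in sense and 5248670, 5399380 and 5148823 in antisense. The mean share of Gas5 in a library was 45.3% ± 12.3 in sense and 11.6% ± 2.34 in antisense (SD, n = 3 each). The difference of 33.7 percentage points had an exact two-sided permutation p = 0.1, the smallest that 3 against 3 libraries allow.

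On the scale of TMM, which sets libraries against each other by genes that differ little, Gas5 averaged 620244 ± 304897 CPM in sense and 90431 ± 21072 CPM in antisense (SD, n = 3 each). These CPM are per effective library and are not shares of counts. The log2 fold change, sense minus antisense, was 2.78 (SE 0.286; 95% interval 2.17 to 3.39; edgeR adjusted p = 3.77e-06), where 4.35% of all genes were called higher in sense. By size it was the 12th highest of 20049 log2 fold changes, and by p the 585th smallest. Gas5 varied within groups: the highest library was 2.86 times the lowest in sense and 1.55 times the lowest in antisense, and the lowest sense library was 2.87 times the highest antisense library. Leaving out 1 library at a time gave log2 fold changes from 2.37, without sense replicate 1, to 3.08, without sense replicate 2, and Gas5 passed each time.

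**Figure D2:**
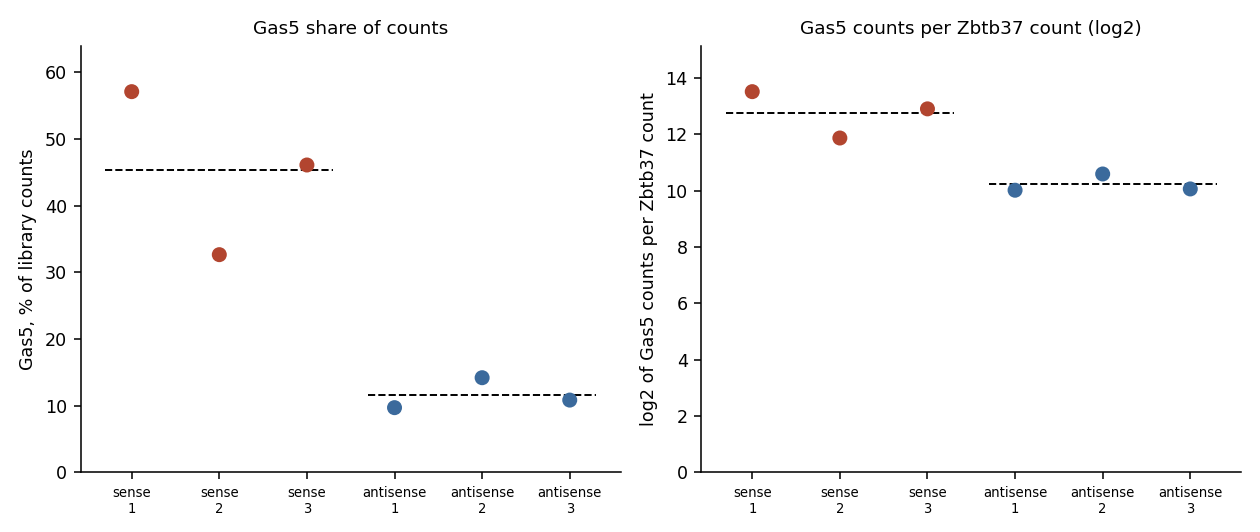
Left, the share of Gas5 in the counts of each total RNA library (%); right, log2 of Gas5 counts per Zbtb37 count in the same library. Points are libraries, sense in red and antisense in blue, and dashed lines are group means; on both axes the 3 sense libraries lie above the 3 antisense libraries and are more spread.

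Zbtb37, annotated on the other strand of the same locus, did not show the difference of Gas5. It had 511, 568 and 459 counts in sense replicates 1, 2 and 3, against 547, 581 and 588 in antisense replicates 1, 2 and 3. Its mean count was 513 ± 54.5 in sense and 572 ± 21.9 in antisense (SD, n = 3 each), while that of Gas5 was 3857906 ± 1943836 in sense and 694617 ± 175051 in antisense. Zbtb37 counts were thus in a narrow range in libraries in which Gas5 counts differed widely.

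TMM-scaled values of Zbtb37 were 80.3, 88.0 and 78.2 CPM in sense replicates 1, 2 and 3, against 71.5, 74.2 and 78.3 CPM in antisense replicates 1, 2 and 3. The groups touched, since antisense replicate 3 lay just above sense replicate 3. The log2 fold change was 0.14 (SE 0.0915; 95% interval -0.06 to 0.33; edgeR adjusted p = 0.324), so Zbtb37 did not pass. In linear terms the ratio of sense to antisense was 1.1, with an interval of 0.961 to 1.26, which leaves room for a small difference in either direction and lies below the interval of Gas5, 4.49 to 10.5. Within the sense group the order of Zbtb37 differed from that of Gas5: replicate 2 was highest in Zbtb37 and lowest in Gas5.

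Taking Gas5 out of the denominator gave a like picture. Zbtb37 had 114.3 (95% exact Clopper-Pearson interval 104.6 to 124.7), 130.2 (119.7 to 141.4) and 112.2 (102.1 to 122.9) CPM computed outside Gas5 in sense replicates 1, 2 and 3. In antisense replicates 1, 2 and 3 it had 104.2 (95.7 to 113.3), 107.6 (99.0 to 116.7) and 114.2 (105.2 to 123.8). These intervals cover counting error only, and most of them overlap between the groups. The means were 118.9 ± 9.85 in sense and 108.7 ± 5.08 in antisense (SD, n = 3 each; exact two-sided permutation p = 0.2, with 0.1 the smallest possible).

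The direction of Zbtb37 turned when Gas5 stayed in the denominator. As CPM of the whole library, Zbtb37 was at 49.0, 87.7 and 60.4 in sense replicates 1, 2 and 3. It was at 94.1, 92.3 and 101.8 in antisense replicates 1, 2 and 3, with no overlap. The share of all genes without overlap was not computed on this scale. Zbtb37 was lowest where Gas5 took the largest share. With library totals alone in edgeR its log2 fold change was -0.55 (adjusted p = 0.0364), while the median over all 20049 genes moved to -0.69 there and was 0.01 with TMM. Relative to that median Zbtb37 stood at 0.14 with library totals and 0.12 with TMM. Gas5 stood at 2.66 above the median with library totals and 2.76 with TMM. Fold changes given below are on the TMM scale, and small positive ones turn negative with library totals alone, as that median does.

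**Figure D3:**
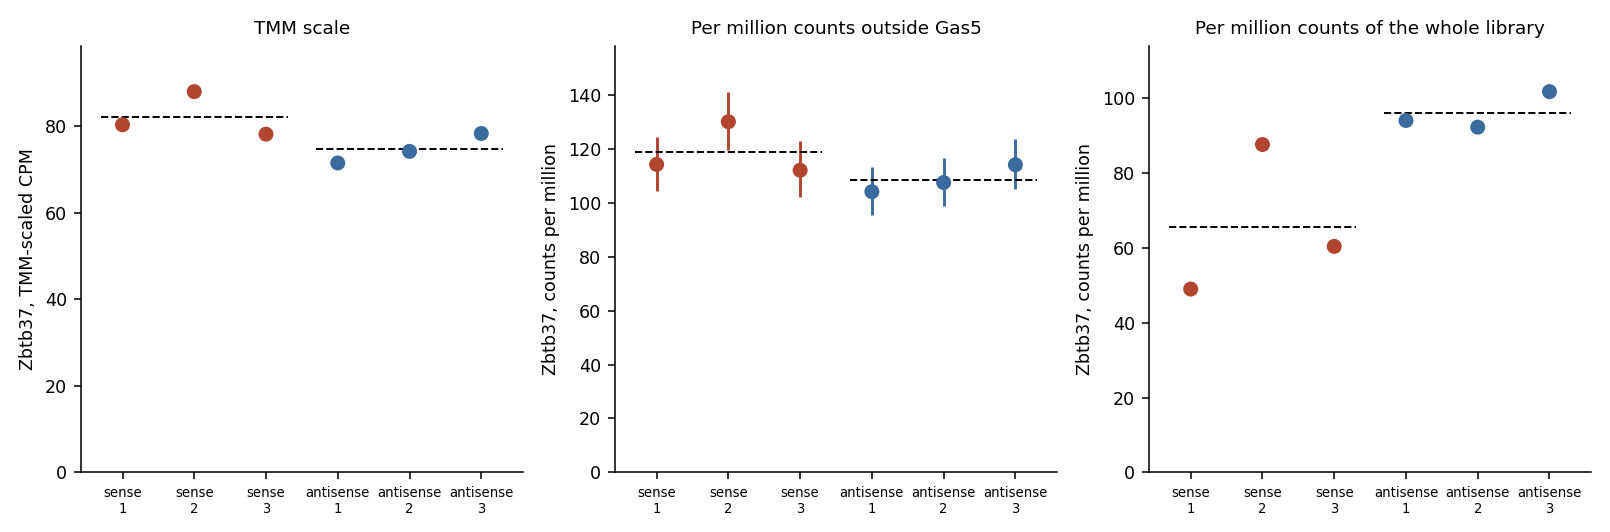
Zbtb37 in each total RNA library on 3 scales, TMM-scaled CPM, CPM outside Gas5 and CPM of the whole library, sense in red and antisense in blue; dashed lines are group means and bars in the middle panel are exact 95% intervals of counting error. On the first and second scales the groups overlap, and on the third all sense libraries lie below all antisense libraries.

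The ratio of both genes within a library needs no scaling. There were 11653, 3726 and 7631 Gas5 counts per Zbtb37 count in sense replicates 1, 2 and 3, against 1031, 1538 and 1065 in antisense replicates 1, 2 and 3. The log2 of this ratio was 12.76 ± 0.83 in sense and 10.22 ± 0.32 in antisense (SD, n = 3 each), a difference of 2.54 with no overlap between groups (exact two-sided permutation p = 0.1, the smallest possible). Counts were not divided by transcript length, so the ratio compares libraries and not the levels of both genes.

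Around Gas5, 25 further genes of the table within 500 kb of its span were examined, and 9 of these were tested. None was higher in sense in edgeR (0 at an unadjusted p under 0.05, and 0 in DESeq2), 2 were lower, which is 22.2% of those tested against 18.2% of all genes, and 7 did not pass. Their median log2 fold change was -0.21, beside 0.01 over all genes. The 7 tested neighbours with a count in a sense library lay well under the difference of Gas5. On the Zbtb37 side, Serpinc1, which encodes antithrombin, had a log2 fold change of -0.45 (edgeR adjusted p = 0.0532) and passed as lower without sense replicate 2, without antisense replicate 1, with Gas5 left out of the library totals or with library totals alone. Rc3h1, which encodes the RNA-binding ubiquitin ligase Roquin-1, had one of 0.08 and the orphan receptor gene Gpr52 one of -0.54, and neither passed. On the other side of Gas5 the values were -0.21 for the centromere protein gene Cenpl, 0.14 for the ubiquitin ligase adaptor gene Klhl20, 0.28 for Ankrd45 and 0.06 for the peroxiredoxin gene Prdx6, and none of these passed. Both genes that passed had no count in any sense library. They met the filter on low counts through the antisense libraries alone, so lower in sense was the only call open to them. Tex50, which lies within the span of Ankrd45, had 34 counts over the antisense libraries and was at least 9.21-fold lower in sense (edgeR adjusted p = 0.000137). The pseudogene Gm6185, at chr1:161178704-161235173, had 130 and was at least 35.2-fold lower (edgeR adjusted p = 3.07e-06). Both bounds set the sense group at a floor of 3 counts over the group.

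**Figure D4:**
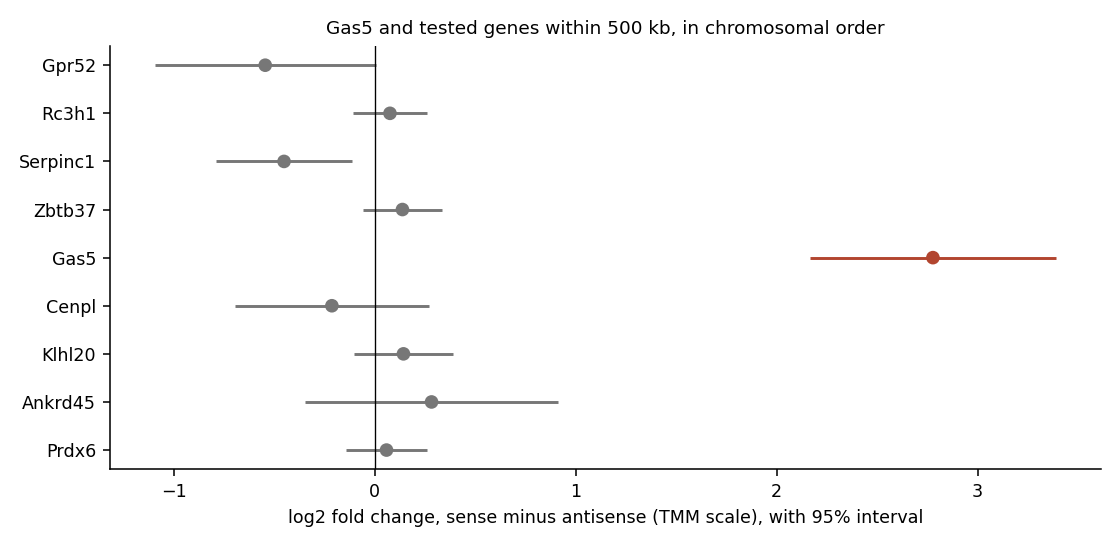
Log2 fold changes, sense minus antisense on the TMM scale, of Gas5 (red), Zbtb37 and the tested genes examined within 500 kb that had a count in a sense library, in chromosomal order from top to bottom, with 95% intervals. Gas5 stands at 2.78 and the other genes between -0.54 and 0.28; Tex50 and Gm6185, with no sense count, are not drawn.

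The snoRNAs that Gas5 hosts could not be followed. The table used has rows for 8 snoRNA genes inside the Gas5 span, among them Snord47, Snord78 and Snord80, and all 8 had 0 counts in all 6 libraries. Of 10 Gas5 snoRNAs named in the list drawn up for this report, those 3 had a row under that name. No row of the small RNA table carries one of the listed names, and its transcript identifiers were not paired with genes here.

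Among its relatives Zbtb37 was unremarkable in fold change. The Zbtb family has 40 rows in the table, 39 of which were tested, with a median log2 fold change of 0.05 beside 0.01 over all genes. None was higher in sense in edgeR (0 at an unadjusted p under 0.05, and 0 in DESeq2), 2 were lower (5.13%, against 18.2% of all genes) and 37, Zbtb37 among them, did not pass. Zbtb46, known as a transcription factor of dendritic cells, stood at 14.2 ± 0.714 CPM in sense and 21.7 ± 3.25 CPM in antisense (SD, n = 3 each), which is -0.61 on the log2 scale (SE 0.149; edgeR adjusted p = 0.0066). Its span overlaps Zgpat, Lime1 and further genes. Zbtb32, a repressor known from lymphocytes, had no count in sense and 52 over the antisense libraries, at least 14.1-fold lower in sense (edgeR adjusted p = 3.55e-05). Zbtb32 met the filter on low counts through the antisense libraries alone, so no other call was open to it. Zbtb1 did not pass (-0.27; edgeR adjusted p = 0.0813), but passed as lower without sense replicate 2 and with library totals alone.

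**Figure D5:**
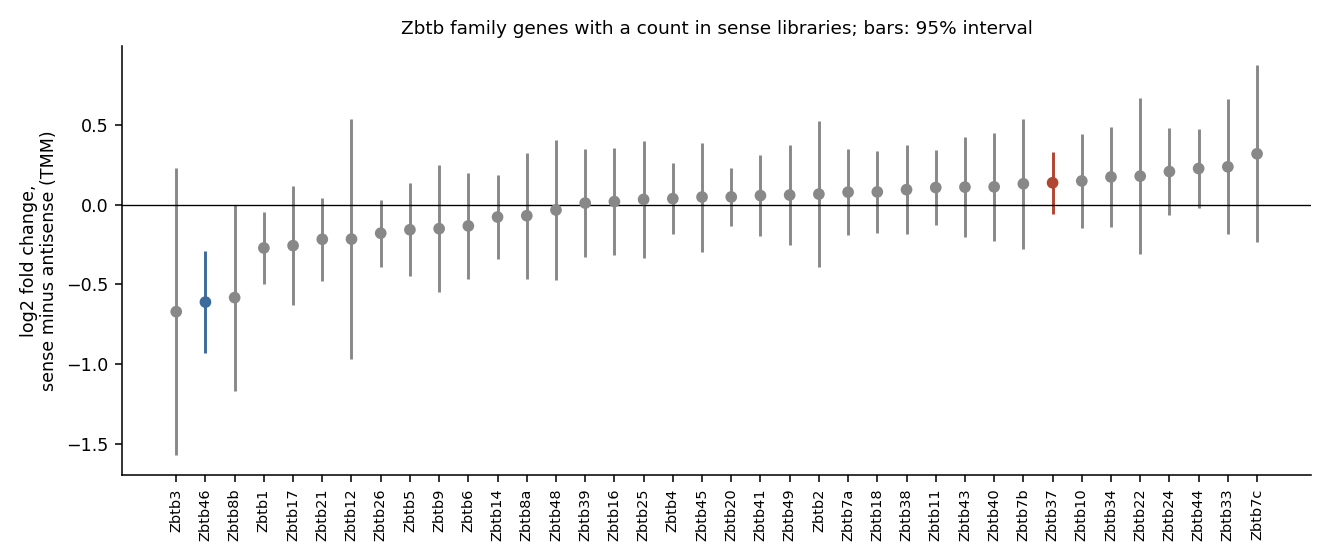
Log2 fold changes, sense minus antisense on the TMM scale, of 38 Zbtb family genes with a count in a sense library, in order of size, with 95% intervals. Zbtb37 (red) stands at 0.14, Zbtb46 (blue) passed as lower at -0.61, and the grey genes did not pass; Zbtb32, with no sense count, is not drawn.

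The difference of Gas5 was not seen at that size in other snoRNA host genes. Of 21 listed, 17 were tested, with log2 fold changes from -0.56 to 1.19 and a median of 0.11, beside 0.01 over all genes. In edgeR 2 were higher in sense (11.8%, against 4.35% of all genes), 1 was lower (5.88%, against 18.2%) and 14 did not pass. Snhg3, host of the Snora73 RNAs, had 52, 37 and 52 counts in sense and 20, 36 and 20 in antisense, and was higher by 1.19 on the log2 scale (SE 0.286; edgeR adjusted p = 0.00585), or by 0.46 with library totals alone, which did not pass. Snhg20 was higher by 0.57 (SE 0.155; edgeR adjusted p = 0.0139), though not past the threshold without sense replicate 1 and turned to -0.16 with library totals alone, and Snhg15 was lower, at -0.56 (SE 0.109; edgeR adjusted p = 0.00112).

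Genes tied to Gas5 by its known biology had small fold changes, from -0.30 to 0.29 on the log2 scale. The list held the glucocorticoid receptor gene Nr3c1 and 8 genes of nonsense-mediated decay, the pathway that degrades Gas5; all 9 were tested, with a median log2 fold change of 0.11, beside 0.01 over all genes. In edgeR 1 was higher in sense (11.1%, against 4.35% of all genes), 1 was lower (11.1%, against 18.2%) and 7 did not pass, and none passed in DESeq2. Nr3c1 was higher in sense at 68.6 ± 3.5 CPM, against 56.1 ± 4.61 CPM in antisense (SD, n = 3 each), a log2 fold change of 0.29 (edgeR adjusted p = 0.0445), and lost this call whichever library was left out and in each other setting run except RLE factors, with a turn to -0.42 with library totals alone. Upf2, a bridging factor of the decay complex, was lower at -0.30 (edgeR adjusted p = 0.0488) and, of the 6 fits with 1 library left out, kept this call in the one without antisense replicate 3. It also lost the call with RLE factors, DESeq2, no filter or the replicate block. The kinase gene Smg1 stood at 0.21 and did not pass (edgeR adjusted p = 0.121).

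Among miRNAs described elsewhere as partners of Gas5, miR-21a-5p was followed. Of 1964 miRNA rows 158 were tested and 0% passed in edgeR (9 higher and 9 lower at an unadjusted p under 0.05, and 0 in DESeq2). Of 9 rows matched by name to the miRNAs listed as Gas5 partners, only miR-21a-5p was tested. Rows of further listed miRNAs, whose numbers carry no letter, were missed by the name matching. They were not examined on their own. Its mature sequence in RefSeq (GRCm38.p6) is given with the seed, bases 2 to 8, in capitals.
miR-21a-5p: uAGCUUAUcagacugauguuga
It had 454, 577 and 578 counts in sense replicates 1, 2 and 3 and 416, 524 and 399 in antisense replicates 1, 2 and 3. Its log2 fold change was 0.02 (SE 0.172; 95% interval -0.36 to 0.39; edgeR adjusted p = 0.968). A difference as large as that of Gas5 in total RNA lies outside this interval. Both assays were scaled separately, and pairing of miR-21a-5p with Gas5 was not tested.

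The genes most like Gas5 and Zbtb37 across libraries were named by Pearson's r of log2 CPM over the 6 total RNA libraries, among 10971 other genes at a mean of at least 10 CPM. For Gas5 these were Diras2, a Ras-like GTPase gene of the brain (r = 0.995), the transcription coactivator gene Mrtfb (r = 0.994) and Sipa1l1, which encodes a postsynaptic regulator of Rap (r = 0.994). Their differences were much smaller than that of Gas5, with log2 fold changes of 0.54 for Diras2, 0.29 for Mrtfb and 0.18 for Sipa1l1. Diras2 and Mrtfb passed (edgeR adjusted p = 0.0222 and 0.0343). Both were picked by likeness to Gas5 over these same libraries. That choice favours genes that differ between the groups, so their calls are no independent result. Diras2 did not pass without sense replicate 1, sense replicate 3 or antisense replicate 1, and Mrtfb passed in only 2 of 6 fits with 1 library left out. In DESeq2 neither passed (adjusted p = 0.0606 for Diras2 and 0.0591 for Mrtfb), and Mrtfb also lost its call with the replicate block, a minimum count of 50 or Gas5 left out of the totals. With library totals alone neither passed. For Zbtb37 they were the repressor gene Mnt (r = 0.987), Gm45311 (r = 0.986) and the myosin phosphatase subunit gene Ppp1r12b (r = 0.986), none of which passed in edgeR. These r values describe 6 libraries in 2 groups that share depth and scaling, and with so many genes high values are reached easily.

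In the authors' deposited table, whose fold changes run as sense over antisense, Gas5 had a log2 fold change of 2.78 (SE 0.454; adjusted p = 3.88e-08) and Zbtb37 one of 0.15 (SE 0.113; adjusted p = 0.495). The authors' deposited table thus places both genes on the same side of 0.05 as the edgeR fit.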

How the data were processed

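Estimated counts per gene (total RNA) and per miRNA or transcript (small RNA) were deposited by the authors, with Salmon, DESeq and build GRCm38 named in the submitters' processing notes; the sources used here give no version, transcript index or strand setting. The authors' deposited comparison tables list per row a signal (mean normalised count), log2 fold change and standard error, a score (test statistic) and raw and adjusted p-values, and were only set beside the results.

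Estimated counts were rounded. Rows were kept by filterByExpr (minimum count 10), scaled by TMM and tested with edgeR 4.0.16 (R 4.3.3), quasi-likelihood F test, two-sided, sense minus antisense, Benjamini-Hochberg over all rows tested; for small RNA, over miRNA rows, on totals over those rows. The standard error is the log2 fold change over the square root of F. DESeq2 1.42.0 was an alternative. Single values were compared by exact permutation over libraries. The steps were run on simulated counts, in which all genes had the same spread and changes went up or down at random, unlike in these data. The wide spread of Gas5 between replicates was not part of that check. Total RNA libraries held 5774904 to 10424024 counts and miRNA rows 193501 to 258237 per library, which limits low rows to wide intervals.

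Positions, start sites and sequences are RefSeq's on GRCm38.p6, matched by symbol; 25 neighbours were matched by symbol or by the gene ID in the authors' table, and 1 further gene of the window is not reported here. The members and lists were chosen with earlier results of these data known. Named were both genes, tested neighbours within 500 kb, up to 3 genes per list by p and the 3 genes most like each member.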

Additional observations from a re-analysis of the deposited data

How the results depend on the processing

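Gas5 stayed higher in sense and past the threshold in each alternative run: log2 fold changes were 1.97 with library totals alone, 2.68 with the replicate block and 2.74 to 2.78 with Gas5 left out of the totals, RLE factors, DESeq2, no filter or a minimum count of 50, with adjusted p from 3.01e-11 to 8.45e-05. Zbtb37 did not pass (adjusted p 0.263 to 0.576) except with library totals alone. Leaving out 1 library at a time gave 2.37 to 3.08 for Gas5, 0.09 to 0.18 for Zbtb37, 27.8 to 40.0 percentage points for the difference in Gas5 share, 2.16 to 2.99 for that in the log2 ratio and 4.58 (without sense replicate 2) to 13.6 for Zbtb37 CPM outside Gas5, against 10.2 with all libraries; 4061 to 5087 genes passed, 2 to 3 neighbours, 2 to 3 Zbtb genes, 2 to 4 snoRNA hosts and 0 to 1 Gas5-linked genes. Genes higher in sense numbered 534 without sense replicate 1, 492 without sense replicate 3 and 571 without antisense replicate 1, against 873 with all.

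Library totals alone, in which a larger Gas5 share lowers all other values by construction, turned Zbtb37 to -0.55 (adjusted p = 0.0364) and its level in the whole library to a difference of -30.4 CPM. The same setting gave Rc3h1 -0.62, Klhl20 -0.53, Ankrd45 -0.47, Prdx6 -0.65, Snhg20 -0.16, Nr3c1 -0.42, Smg1 -0.50, Diras2 -0.18, Mrtfb -0.43, Sipa1l1 -0.53, Mnt -0.33, Gm45311 -0.48 and Ppp1r12b -0.50, each positive with TMM. It called 12644 genes (63 higher and 12581 lower, against 873 and 3658 with TMM), 8 neighbours, 29 Zbtb genes, 8 snoRNA hosts and 6 Gas5-linked genes. A minimum count of 50 left 2197 genes passing (402 higher and 1795 lower), 0 neighbours of 5 tested, 1 Zbtb gene and 1 Gas5-linked gene. Gas5-linked genes passing numbered 1 with Gas5 left out of the totals or with RLE factors and 0 with DESeq2, no filter or the replicate block, against 2; the cause was not tested. No miRNA row matched by name to the Gas5 list passed in any setting run, and listed miRNAs missed by that matching were not examined.

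Deviations from the group mean correlated at 0.0512, -0.0585 and -0.00933 between libraries with the same number. Libraries with unlike numbers had correlations from -0.132 to 0.142. Values of this size cannot exclude a culture or batch shared by number, so whether the numbers pair libraries stays unknown. With the number as a block in edgeR, Gas5 stood at 2.68 (adjusted p = 2.99e-05), Zbtb37 at 0.14, and 4123 genes passed. Rows with few counts, such as Tex50, Zbtb32 and Snhg3, have wide intervals at this depth.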
